A study of Homo sapiens with 9 samples.

Results

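γH2AX peaks of cells treated with aphidicolin (APH) were compared with those of untreated cells, using the autosomal broad peaks of 2 APH and 2 untreated ChIP-seq libraries, 4 of the 9 samples of the series. The cells were a human B-lymphocyte line, which the study names GM07027 and the sample labels GM09027A. APH was given at 0.1 µg/mL for 24 h according to the labels, and the untreated cells received no drug. The study describes the replicates as independent biological replicates, all from 1 cell line, and every list comes from formaldehyde-crosslinked cells and an antibody to γH2AX. The members were all peaks on chromosomes 1 to 22, which gave 4779 and 4327 peaks in the untreated replicates and 17658 and 14009 under APH, 40773 of the 213253 autosomal peaks in the 8 lists of the series. Each peak was assigned to 1 of 2887 bins of 1 Mb by its midpoint, and to each of 19126 protein-coding genes that it overlapped.

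γH2AX is histone H2AX phosphorylated at its tail by the checkpoint kinases ATM, ATR and DNA-PK, and it marks chromatin around DNA breaks and stalled replication forks. APH inhibits the replicative DNA polymerases and, at a low dose, slows forks without stopping the cell cycle. Common fragile sites (CFSs) are loci that form gaps and breaks on metaphase chromosomes after such treatment. The best known of them, FRA3B and FRA16D, lie in the very long genes FHIT and WWOX, and FHIT is known to replicate late and from few origins in lymphoblastoid cells.

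The sites below show what the peaks behind the comparison look like at the base level. They are 200 bp, in hg38 and on the forward strand, centred on intervals that peaks of both replicates shared and that overlapped no peak of the other condition. Capitals mark runs of at least 6 A or at least 6 T. The first 2 are the strongest such APH sites, ranked on the authors' fold enrichment averaged over both replicates, in FHIT and WWOX, the genes with the largest gaps between the groups. The third is the strongest such APH site of all, and the last is an untreated site. The FHIT site was chr3:60101674-60101873 and the WWOX site chr16:78515882-78516081, each in an intron. The strongest APH site was chr2:2903489-2903688 in an intron of the lncRNA gene LINC01250. The untreated site was chr19:5217437-5217636 in an intron of PTPRS.
FHIT, APH: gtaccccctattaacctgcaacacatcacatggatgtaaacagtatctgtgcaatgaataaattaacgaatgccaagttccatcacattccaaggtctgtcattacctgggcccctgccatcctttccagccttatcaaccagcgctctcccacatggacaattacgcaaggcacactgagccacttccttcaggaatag
WWOX, APH: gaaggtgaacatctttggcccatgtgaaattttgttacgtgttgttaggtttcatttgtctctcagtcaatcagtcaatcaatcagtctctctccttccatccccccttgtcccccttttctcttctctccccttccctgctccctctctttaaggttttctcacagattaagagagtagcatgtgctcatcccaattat
LINC01250, APH: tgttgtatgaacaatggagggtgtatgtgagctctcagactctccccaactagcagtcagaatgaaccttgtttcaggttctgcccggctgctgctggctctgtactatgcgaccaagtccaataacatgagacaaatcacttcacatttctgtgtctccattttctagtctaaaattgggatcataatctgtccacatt
PTPRS, untreated: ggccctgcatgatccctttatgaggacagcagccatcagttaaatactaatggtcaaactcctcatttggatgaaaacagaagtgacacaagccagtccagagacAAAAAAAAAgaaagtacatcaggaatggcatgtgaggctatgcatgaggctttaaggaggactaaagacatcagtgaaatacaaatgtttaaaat

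The 3 APH sequences hold no such run and have a GC content of 44 to 47%. The PTPRS site, the third in rank among untreated sites, has 1 run, of 9 bases, and 40% GC, and the second in rank, not printed, has 0 runs and 35% GC. The fold enrichments of the 2 replicates were 2.69 and 3.07 at the FHIT site, where both peaks shared only 71 bp, and 2.91 and 3.26 at the WWOX site. They were 2.79 and 3.67 at the LINC01250 site and 3.46 and 2.66 at the PTPRS site. Over all such APH sites, 19.1% of the 200 bp windows (1038) held AAAAAA or TTTTTT, against 23.4% of the 145 such untreated sites and 35.4% of all autosomal windows of that length. Other sites that the rule named were APH sites in introns of MROH7 and SLC39A11 and in the lncRNA gene CDC42-AS1, and an untreated site 437 kb from SMARCA2.

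The lists differ in length, so numbers were set against the whole list and are given as peaks per 10000 autosomal peaks of that list, called the share here. One peak is a share of 2.09 and 2.31 in the untreated replicates and of 0.566 and 0.714 under APH. A share can therefore fall while the number of peaks stays the same, and numbers are given beside shares. The lists hold no read counts, so the depth behind them is unknown, and the longer APH lists and any difference in depth cannot be told apart. Most peaks were weak. At the authors' q-value of at most 0.05, 42 and 22 untreated peaks and 97 and 183 APH peaks remained.

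The 1 Mb bins with the largest rise under APH lay in FHIT and WWOX. The share of both APH lists was above that of both untreated lists in 656 bins, 29.4% of the 2232 bins with a peak in any list, and below in 215 bins (9.63%). Of the 656 bins, 319 had no untreated peak. By number instead of share, 1464 bins were above and 11 below. With equal numbers of the strongest peaks from each list, 223 bins were above in share and 178 below. In limma on log2(share + 1), 11 of 1008 bins were higher under APH (1.09%) and 22 were lower (2.18%), at an adjusted p of at most 0.05. The median log2 difference of the tested bins was 0.20. limma took the spread of each bin almost wholly from its trend with the mean share over all bins. The adjusted p-values of single bins therefore rest on that trend rather than on 2 lists each.

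**Figure D1:**
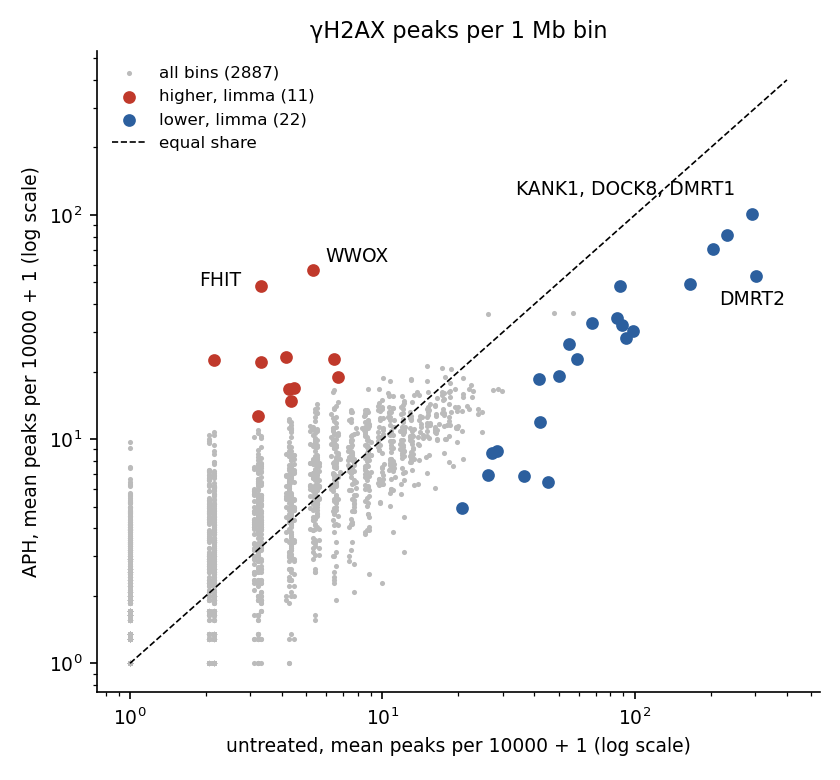
Mean share of each 1 Mb bin in the untreated (x axis) and APH (y axis) lists, as peaks per 10000 plus 1 on log scales. Red and blue points are the 11 bins higher and 22 bins lower under APH in limma, and the dashed line marks equal shares. The FHIT and WWOX bins lie farthest above the line and the bins of distal 9p, labelled with their genes, are among the farthest to the right.

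FHIT encodes a diadenosine triphosphate hydrolase and is lost in many tumours. The bin from 60 to 61 Mb on chromosome 3, which lies inside FHIT, held 0 and 2 untreated peaks and 122 and 36 APH peaks. Both APH lists were far above both untreated lists, although the first held over 3 times as many peaks there as the second. Its share rose from 2.31 ± 3.27 to 47.4 ± 30.7 (SD, n = 2 lists each; log2 difference 4.19, SE 0.53, limma adjusted p = 5.17e-13). The neighbouring bins also rose, with 0 and 2 against 44 and 24 peaks from 59 to 60 Mb (adjusted p = 6.17e-06) and 0 and 1 against 48 and 22 peaks from 61 to 62 Mb (adjusted p = 1.53e-06 in limma). The bin from 58 to 59 Mb, which holds CFAP20DC, had 1 and 4 untreated and 32 and 25 APH peaks (limma adjusted p = 0.0264). In the bins from 59 to 62 Mb the mean untreated share was under 3, the limit for testing. They entered the test only through their APH lists.

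WWOX encodes an oxidoreductase with WW domains. The bin from 78 to 79 Mb on chromosome 16 held 3 and 1 untreated peaks and 139 and 46 APH peaks, the largest gap of all bins. Its share rose from 4.29 ± 2.80 to 55.8 ± 32.4 (log2 difference 3.40, SE 0.44, limma adjusted p = 3.56e-12). The next bin, from 79 to 80 Mb, with the end of WWOX and MAF, had 3 and 0 untreated and 56 and 18 APH peaks (limma adjusted p = 2.29e-05).

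The other 5 bins that rose were outside these loci, and 4 of them are given here. On chromosome 17 from 73 to 74 Mb, with SDK2 and part of SLC39A11, numbers were 2 and 1 against 29 and 21 (adjusted p = 0.0127 in limma). On chromosome 8 they were 1 and 1 against 21 and 16 from 139 to 140 Mb, with KCNK9 and part of TRAPPC9 (adjusted p = 0.0483), and 0 and 3 against 31 and 20 from 133 to 134 Mb, with TG and NDRG1 (adjusted p = 0.0011 in limma). On chromosome 16 from 12 to 13 Mb, with SNX29 and SHISA9, they were 1 and 2 against 22 and 21 (limma adjusted p = 0.0483). This bin passed in 3 of 15 alternatives and the bin from 139 to 140 Mb on chromosome 8 in 2 of 15. All 11 bins lay at least 5 Mb from a chromosome end. Of the 11, 8 touched a gene over 500 kb (17.9% of all bins did) and 7 a CFS band (28.9% of all bins). Their median was 2 protein-coding genes per bin, against 5 over all bins. The bins at FHIT and those at WWOX are neighbours, so the 11 are not separate loci, and all bins include those not tested.

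The number of bins past the threshold depended on single lists and on the bin edges. Without APH replicate 1, 0 bins passed as higher in limma, without APH replicate 2 there were 3, without untreated replicate 1 or 2 there were 120 or 125, and with bins shifted by 500 kb there were 0. The direction at the FHIT bin from 60 to 61 Mb was the same under all 15 alternatives that tested it, with log2 differences of 2.94 to 5.43, and it passed the threshold in 10 of them (limma adjusted p 9.35e-30 to 0.559). The WWOX bin from 78 to 79 Mb passed in 11 of 15, with log2 differences of 2.79 to 4.30.

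Per gene, FHIT and WWOX again had the largest gap between the groups, followed by other long genes. Both APH lists were above both untreated lists in 1348 genes, 18.9% of the 7132 genes with a peak, and below in 336 genes (4.71%). Among the 1348 genes, 1257 had no untreated peak. By number, 1725 genes were above and 54 below. With equal numbers of the strongest peaks from each list, 219 genes were above in share and 197 below. In limma, 0 of 455 genes were higher (0%) and 5 lower (1.1%) at an adjusted p of at most 0.05, and 22 were higher and 53 lower at an unadjusted p of at most 0.05. With voom weights 2 were higher and 28 lower. Without untreated replicate 1 or 2, 53 or 62 genes were higher, and without APH replicate 1 or 2 there were 2 or 0.

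FHIT (chr3:59747277-61251452) held 0 and 2 untreated peaks and 163 and 48 APH peaks. Its share was 2.31 ± 3.27 in untreated cells and 63.3 ± 41.0 under APH (log2 difference 4.60, SE 0.95, limma adjusted p = 0.155). WWOX (chr16:78099654-79212667) held 5 and 1 untreated peaks and 160 and 53 APH peaks, with shares of 6.39 ± 5.76 and 64.2 ± 37.3 (log2 difference 3.28, SE 0.73, limma adjusted p = 0.156). Neither gene passed the threshold, in contrast to their bins, and in both the APH lists differed from each other about 3-fold in number. ZFHX3 (chr16:72782885-73891930), which encodes a homeobox transcription factor, had 1 and 1 against 31 and 20 peaks and shares of 2.20 ± 0.15 and 15.9 ± 2.32 (log2 difference 2.40, SE 0.33, limma adjusted p = 0.0546). Its replicates were more even than those of FHIT and WWOX, and it lay just over the threshold.

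Among the next of the 12 genes with the largest gaps were TRAPPC9, a subunit of a vesicle tethering complex, with 2 and 1 untreated and 20 and 20 APH peaks, and KAZN, with 3 and 2 against 22 and 20. ADARB2, a brain member of an RNA editing enzyme family, had 1 and 1 against 12 and 10 peaks. CELF4, an RNA-binding protein, had 1 and 0 against 11 and 10, and SNX29 1 and 0 against 11 and 11. KIAA1671 had 0 and 0 against 8 and 7 peaks. The adjusted p-values of these 6 genes in limma were 0.156 to 0.241. KIAA1671, CELF4 and SNX29, with mean untreated shares of 0, 1.05 and 1.05, passed the filter on low values only through their APH lists. MAF (1 and 0 against 25 and 11) and RANBP2 (0 and 0 against 12 and 7) were counted over RefSeq spans of 398116 and 1122820 bp, and that of MAF overlaps WWOX. Inside the GENCODE genes of 14895 and 66329 bp, MAF held 1 and 0 APH peaks and RANBP2 held 0 and 0.

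**Figure D2:**
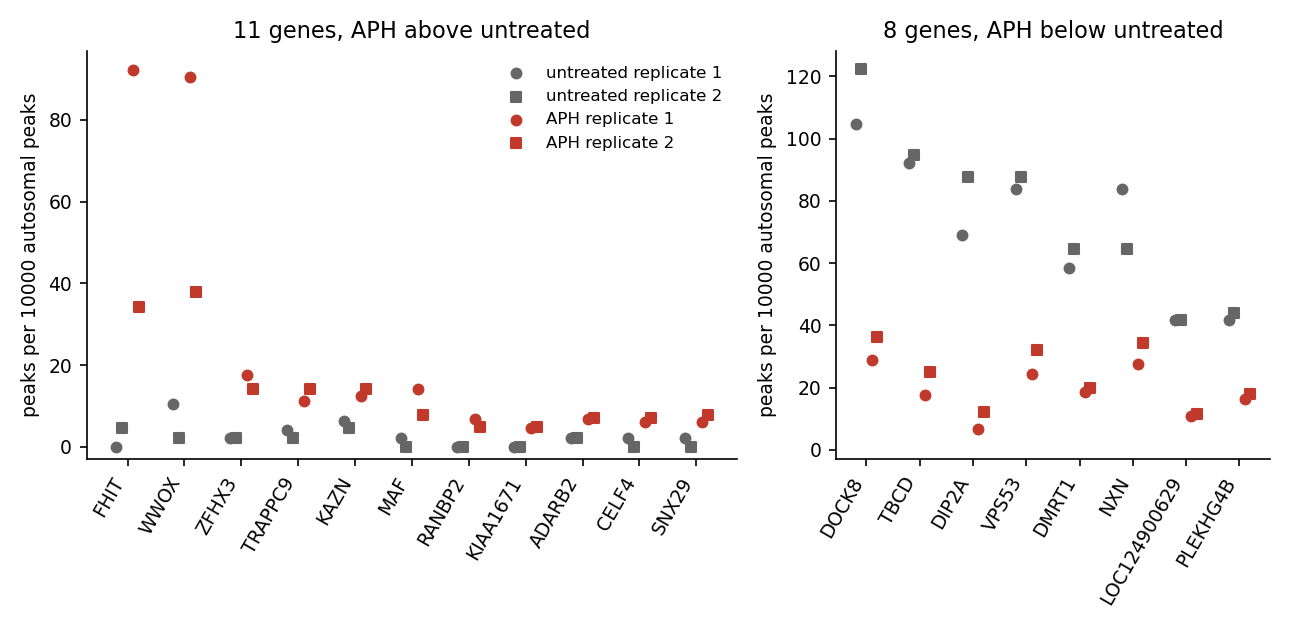
Share of each library, in peaks per 10000 autosomal peaks, for 11 of the 12 genes with the largest gap above and the 8 with the largest gap below untreated cells. Grey symbols are untreated and red symbols APH, circles replicate 1 and squares replicate 2. FHIT and WWOX have 1 APH value near 90 and 1 under 40, while the 8 genes below have untreated values of 41.6 to 122.

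The APH peaks spread over the whole length of FHIT and WWOX and lay mainly in their long introns. In FHIT, the longest intron of the MANE transcript, intron 5 with 523 kb, held 60 and 21 APH peaks, and intron 4 with 285 kb held 47 and 11. In WWOX, intron 8 with 779 kb held 133 and 40 APH peaks of the gene's 160 and 53, and intron 5 with 223 kb held 18 and 7. Introns 4 and 5 of FHIT held 1 untreated peak each, in replicate 2, and intron 8 of WWOX held 3 untreated peaks, in replicate 1. Their median fold enrichment was 2.67 and 2.60 in FHIT and 2.64 and 2.73 in WWOX, against 2.55 and 2.67 over the whole APH lists. FHIT peaks covered 137 and 31.0 kb under APH and 0 and 0.857 kb in untreated cells, and WWOX peaks 161 and 31.0 kb against 2.51 and 0.2 kb. At a q-value of at most 0.05, FHIT kept 6 peaks and WWOX 2, all in APH replicate 1.

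**Figure D3:**
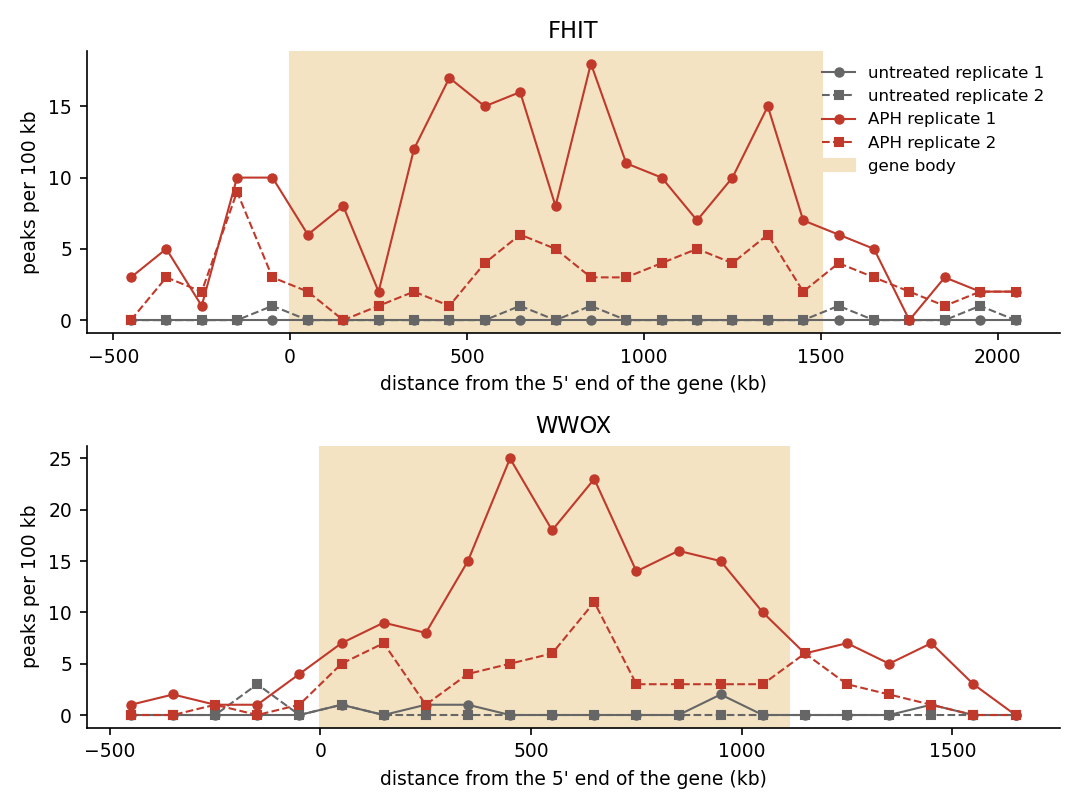
Number of peaks per 100 kb along FHIT and WWOX, by distance from the 5′ end of the gene, with 500 kb on either side. Red lines are APH and grey lines untreated lists, circles replicate 1 and squares replicate 2, and the shaded area is the gene body. The untreated lists stay near 0 along both genes. APH replicate 1 rises within both genes and lies above replicate 2 at most positions. APH replicate 2 rises within WWOX. Around FHIT its highest step, with 9 peaks, starts at -200 kb, outside the gene, and steps inside hold at most 6.

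The same 2 genes held few peaks in the other treated lists. FHIT had 2 and 1 peaks under hydroxyurea, in lists of 79891 and 69922 peaks, and 5 and 4 under methyl methanesulfonate, in lists of 12202 and 10465 peaks. WWOX had 0 and 0 under hydroxyurea and 3 and 6 under methyl methanesulfonate. The share of FHIT was lower in each of these 4 lists than in both APH lists.

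Among 25 large genes known from CFSs, the difference was uneven. Of these, 18 had a peak. Both APH lists were above both untreated lists in 6 and below in 2, which is 33.3% and 11.1% of the 18. The values were 18.9% and 4.71% of all genes with a peak, and 31.6% and 5.12% of genes over 500 kb with a peak. The 6 included FHIT, WWOX, IMMP2L, MAD1L1 and PTPRN2. IMMP2L, a mitochondrial peptidase gene, had 0 and 0 untreated and 3 and 3 APH peaks, PTPRN2 0 and 0 against 3 and 6, and MAD1L1, a spindle checkpoint gene, 0 and 0 against 2 and 3. Each of the last 3 rests on at most 6 peaks per list. The 2 below were DAB1, with 3 and 3 against 10 and 8 peaks, and RAD51B, a recombination gene, with 4 and 4 against 10 and 7. Another 7 genes, among them MACROD2 and LRP1B, had no peak in any of the 4 lists. None of the 7 members tested passed in limma. The median difference in share was 0 for the 25 genes and 0 for all genes.

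Together these 25 genes held 22 and 19 untreated and 417 and 171 APH peaks, which is 0.460 and 0.439% of the untreated lists and 2.36 and 1.22% of the APH lists (means 0.450 ± 0.015 and 1.79 ± 0.81, exact permutation p = 0.33). With 2 lists against 2, 0.33 is the smallest two-sided p the test allows, so none of the shares given here could pass 0.05. Without FHIT and WWOX the shares were 0.356 and 0.370% against 0.532 and 0.5%, still without overlap but far closer.

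Among 28 B-cell genes known as translocation partners or targets of the antibody-gene mutator AID, 16 had a peak. Both APH lists were above in 4 and below in 1 (25% and 6.25% of the 16, near the 18.9% and 4.71% of all genes with a peak), and 0 of 3 tested passed in limma. PAX5, a B-cell identity factor, had 1 and 0 untreated and 5 and 7 APH peaks (limma adjusted p = 0.455), BACH2 0 and 0 against 3 and 2, RUNX1 0 and 0 against 2 and 2, and IRF4 0 and 0 against 1 and 1. CIITA, the class II transactivator, was the 1 below, with 1 and 2 peaks in each group. MYC, CCND1 and SOCS1 had none in the 4 lists. The list's total was 4 and 12 untreated and 20 and 24 APH peaks, and its percentages overlapped between the groups.

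Long genes as a class took a larger part of the APH lists. Protein-coding genes over 500 kb, 303 in number and 9.10% of assembled bases, held 2.68 and 3.42% of the untreated peaks and 6.59 and 5.35% of the APH peaks (means 3.05 ± 0.52 and 5.97 ± 0.88, exact permutation p = 0.33). All 4 values were below the share of bases. Leaving out FHIT and WWOX gave 2.57 and 3.35% against 4.76 and 4.63%. Of these genes, 215 had a peak, and both APH lists were above in 68 of them (31.6%) and below in 11 (5.12%). Among all protein-coding genes with a peak the values were 18.9% and 4.71%. Longer genes can hold more peaks, and gene length was not adjusted for. Untreated peaks touched 69 and 90 of the long genes and APH peaks 157 and 165. Genes of 100 to 500 kb held 20.05 and 22.2% against 20.8 and 23.1% of peaks, and genes of 20 to 100 kb 21.2 and 20.2% against 22.3 and 21.2%, each overlapping between the groups. Genes up to 20 kb also overlapped, with 8.37 and 6.49% against 7.32 and 6.81%. All protein-coding genes together held 51.3 and 51.3% of untreated and 55.9 and 55.6% of APH peaks (exact permutation p = 0.33).

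**Figure D4:**
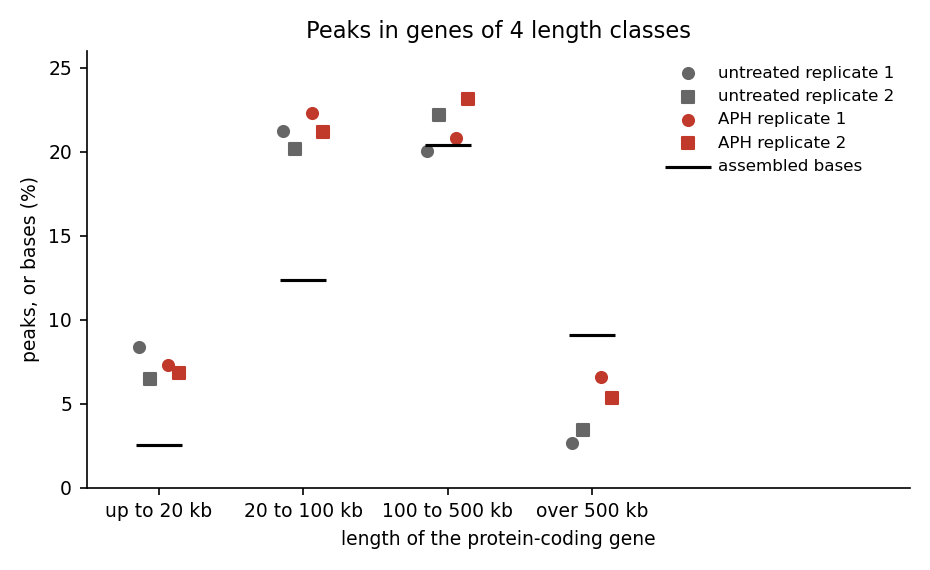
Percentage of each list's peaks in protein-coding genes of 4 length classes, with grey untreated and red APH symbols (circles replicate 1, squares replicate 2) and a black bar for the percentage of assembled bases. In genes over 500 kb both APH lists lie above both untreated lists and all 4 lie below the bar, and in the other classes the groups overlap.

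CFS bands as listed by the study (108 autosomal bands, 89 after touching bands were joined, 26.6% of assembled bases) held 27.5 and 27.0% of untreated and 30.7 and 28.8% of APH peaks (means 27.2 ± 0.36 and 29.8 ± 1.30, exact permutation p = 0.33). Outside the terminal 5 Mb they held 29.3 and 28.8% against 31.0 and 29.4%, so that the difference was 1.16 in place of 2.54 percentage points, and it was 1.62 without APH replicate 1. Both APH lists were above in 28 of the 86 bands with a peak (32.6%) and below in 8 (9.3%), close to the 29.4% and 9.63% of 1 Mb bins. The joined band with FRA16C and FRA16D on 16q22 and 16q23 had 67 and 58 untreated and 453 and 265 APH peaks, with shares of 140 and 134 against 257 and 189. FRA3B on 3p14.2 had 0 and 9 against 230 and 90 peaks, and shares of 0 and 20.8 against 130 and 64.2. The joined band with FRA7C and FRA7D on 7p14 and 7p13 had 13 and 15 against 92 and 83 peaks. The band 7p22 had 6 and 11 against 88 and 55. The study's list names it FRA7F, a name it also gives to 7q22. Among the bands below, FRA5G on 5q35 had shares of 193 and 215 against 121 and 114, but 92 and 93 against 214 and 160 peaks. The bands 22q13 and 20p13 were likewise lower in share and had more peaks under APH (98 and 76 against 243 and 179, and 44 and 40 against 106 and 91). All 3 reach a chromosome end.

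Chromosome ends took a far smaller part of the APH lists, although they held more peaks in number. The terminal 5 Mb of the autosomes held 30.4 and 30.5% of untreated and 18.0 and 18.3% of APH peaks (means 30.4 ± 0.069 and 18.1 ± 0.20, exact permutation p = 0.33). Most of this lay in the last 1 Mb, with 1.35% of bases, which held 20.3 and 20.6% of untreated and 8.93 and 9.92% of APH peaks. By number the same 1 Mb held 971 and 890 untreated and 1577 and 1390 APH peaks. With equal numbers of the strongest peaks from each list, the terminal 5 Mb held 32.0 and 30.5% against 25.9 and 25.8%, a difference of -5.40 percentage points in place of -12.3. From 2 to 5 Mb the APH shares were already the higher, with 5.11 and 5.41% against 6.37 and 5.80%.

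**Figure D5:**
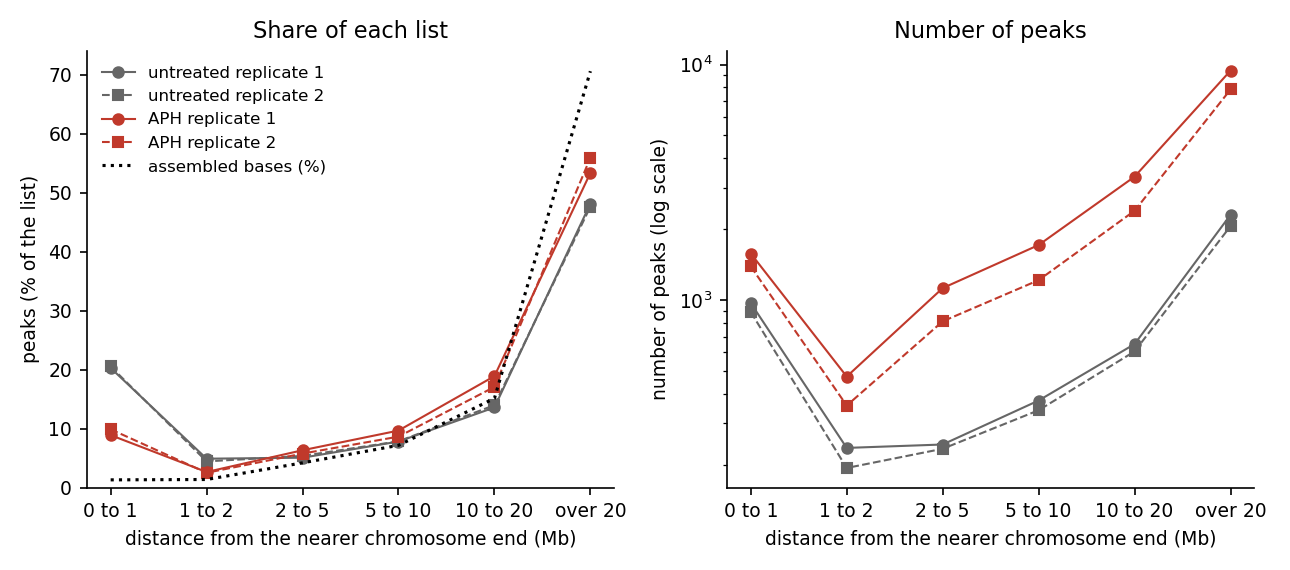
Peaks by distance from the nearer chromosome end in Mb, as a percentage of each list (left) and as a number on a log scale (right). Grey is untreated and red APH, circles replicate 1 and squares replicate 2, and the dotted line is the percentage of assembled bases. In the last 1 Mb the untreated percentages lie at about 20 and the APH percentages under 10, while the APH numbers are the higher in every class.

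Of the 22 bins that were lower in limma, 16 lay within 1 Mb of an end and 18 within 5 Mb. Of all 2887 bins, 66 lay within 1 Mb of an end and 2645 lay 5 Mb or more from one. Among the 66 end bins, both APH shares were below both untreated shares in 26 and above in 15. The lower share was thus not found at every end. The first 1 Mb of 9p, with KANK1, DOCK8 and DMRT1, had 119 and 143 untreated and 152 and 160 APH peaks, and its share fell from 290 ± 57.6 to 100.1 ± 19.9 (log2 difference -1.52, limma adjusted p = 6.95e-21). The first 1 Mb of 17p, with VPS53 and NXN, had 113 and 97 against 125 and 127 peaks (log2 difference -1.51), and 17q from 82 to 83 Mb, with TBCD, 104 and 82 against 115 and 103 (log2 difference -1.54). The end of 21q from 46 Mb, with DIP2A and PCNT, had 77 and 72 against 82 and 70 peaks (log2 difference -1.74), and the first 1 Mb of 12p 44 and 39 against 47 and 39 (log2 difference -1.71). The limma adjusted p-values of these 4 bins were 9.30e-17, 2.49e-15, 5.14e-15 and 2.39e-08. In these 5 bins the APH shares were far below the untreated shares, while the numbers were similar or higher under APH. With equal numbers of the strongest peaks from each list, the log2 differences were -0.06 for the first 1 Mb of 9p, -0.39 for 17p, -0.57 for 17q, -0.45 for 21q and -0.66 for 12p, and none of the 5 bins passed (limma adjusted p 0.559 to 0.860). When peaks of the terminal 5 Mb were left out of the lists, 2 bins were lower and 3 higher in limma. Without untreated replicate 1 or 2, 36 or 37 bins were lower, and without APH replicate 1 there were 11.

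The 5 genes that were lower in limma lay near the ends of 9p, 17q, 21q and 5p. DIP2A on 21q had 33 and 38 untreated and 12 and 17 APH peaks, with shares of 78.4 ± 13.3 and 9.47 ± 3.78 (log2 difference -2.96, SE 0.33, limma adjusted p = 0.0434). TBCD, a tubulin-folding cofactor on 17q, had 44 and 41 against 31 and 35 peaks, with shares of 93.4 ± 1.90 and 21.3 ± 5.25 (log2 difference -2.10, SE 0.24, limma adjusted p = 0.0434). In these 2 genes both APH lists also held fewer peaks than both untreated lists. Fewer peaks did not mean fewer covered bases in the bins around them. In the 21q bin with DIP2A, peaks covered 190 and 162 kb untreated and 295 and 277 kb under APH. The widest peak there was 24.9 and 16.1 kb against 44.8 and 41.0 kb. In the 17q bin with TBCD, peaks covered 148 and 110 kb against 225 and 197 kb. Coverage inside the 2 genes was not measured. DOCK8, an immune-cell guanine nucleotide exchange factor on 9p, had 50 and 53 against 51 and 51 peaks, DMRT1, a gonadal transcription factor next to it, 28 and 28 against 33 and 28, and LOC124900629 on 5p 20 and 18 against 19 and 16. Their log2 differences were -1.77, -1.62 and -1.82, with numbers about equal. VPS53 (40 and 38 against 43 and 45 peaks), NXN (40 and 28 against 49 and 48) and PLEKHG4B, which overlaps LOC124900629 and shares peaks with it (20 and 19 against 29 and 25), completed the 8 genes with the largest gap below and had limma adjusted p-values of 0.0546 to 0.115. Without untreated replicate 1 or 2, 49 or 27 genes were lower, and without APH replicate 1 or 2 there were 13 or 3. With a pseudocount of 0.5 in place of 1 there were 0.

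Number and share were lower together in few places. Of the 22 lower bins, 4 had fewer peaks in both APH lists than in both untreated lists. The largest was 9p from 1 to 2 Mb, whose only protein-coding gene is DMRT2. It held 150 and 124 untreated peaks and 56 and 103 under APH, and its share fell from 300.2 ± 19.3 to 52.6 ± 29.6 (log2 difference -2.61, SE 0.18, limma adjusted p = 2.07e-43). The peaks there covered 204 and 135 kb in untreated cells and 67.1 and 104 kb under APH. The other 3 were 2 neighbouring bins on 6p and 1 on 14q. On chromosome 6 from 26 to 27 Mb numbers were 15 and 17 against 8 and 10 (log2 difference -2.43, limma adjusted p = 4.71e-06), and from 27 to 28 Mb 29 and 12 against 9 and 8 (log2 difference -2.72, adjusted p = 6.49e-08 in limma). These bins hold the large histone gene cluster and also 44 and 56 tRNA genes. Few peaks lay near histone genes, with 2 and 1 untreated and 3 and 3 APH peaks within 5 kb of all 74 of them. On chromosome 14 from 20 to 21 Mb numbers were 10 and 8 against 5 and 7 (limma adjusted p = 0.00308). The 9p bin passed in 11 of 14 alternatives, the 6p bins in 11 of 15 each and the 14q bin in 8 of 15. All 4 kept their direction. With equal numbers of the strongest peaks from each list, 0 bins passed as lower in limma.

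Whole chromosomes differed too. Both APH shares were above both untreated shares on 9 of the 22 autosomes (40.9%) and below on 5 (22.7%). Chromosome 9 took 10.7 and 10.98% of untreated and 6.30 and 7.195% of APH peaks, and chromosome 17 10.6 and 9.57% against 6.84 and 6.40%. Chromosome 3, which carries FHIT, took 4.54 and 4.69% against 6.81 and 6.59%, and chromosome 7 1.97 and 2.52% against 3.68 and 3.86%. Chromosome 16, with WWOX, was not among those without overlap.

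Sites found in both APH replicates split by location. Of APH replicate 1 peaks, 10.4% overlapped a replicate 2 peak by at least 1 bp, and 13.3% in the other direction, against 16.0 and 19.4% between the untreated lists. This gave 1709 replicated APH sites, of which 1038 (60.7%) overlapped no untreated peak and 393 (23%) overlapped both untreated lists. Of the 1038 sites, 8.57% touched a gene over 500 kb, 32.0% a CFS band and 21.97% the terminal 5 Mb. Over all 1709 sites these values were 5.44, 26.6 and 45.0%. The whole APH lists held 30.7 and 28.8% of their peaks in CFS bands. Of the 393 sites, 0% touched a gene over 500 kb and 94.9% the terminal 5 Mb. FHIT held 20 replicated APH sites, 19 of them without an untreated peak, and WWOX 24 and 24. The 19 and 24 sites are among the 1038 and count as sites in genes over 500 kb. Among the 697 replicated untreated sites, 145 (20.8%) overlapped no APH peak and 0% touched a gene over 500 kb. The APH lists are longer, so 60.7 and 20.8% are not on a like footing. Of the peaks of single APH lists, 5.49 to 7.04% overlapped a given untreated list, and 20.3 to 25.1% in the other direction.

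Most features of the sequence overlapped between the groups. The median GC content of 500 bp around the peak centres was 46.6 and 45.6% in untreated and 47.4 and 46.0% in APH lists, overlapping between the groups and above the 40% of all autosomal windows (exact permutation p = 0.667). Peaks within 1 kb of a transcription start site made up 3.35 and 3.07% against 3.21 and 3.07% (exact permutation p = 0.667). A run of 20 A or 20 T lay in 0.774 and 0.601% of untreated and 0.974 and 0.935% of APH windows, all below the 2.81% of all windows. Here the groups did not overlap (exact permutation p = 0.33), and outside the terminal 5 Mb the shares were 0.451 and 0.399% against 0.877 and 0.707%. AT repeated 10 times lay in 0.0628 and 0.0231% against 0.0227 and 0.0286%, and in 0.335% of all windows. A G-quadruplex motif, 4 runs of at least 3 G with 1 to 7 bases between them on either strand, lay in 5.52 and 5.18% against 6.13 and 5.30%, and in 5.14% of all windows. These matches describe the windows and are not sites of any factor.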

How the data were processed

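γH2AX ChIP-seq of untreated and APH-treated lymphocytes was analysed from 4 deposited broadPeak lists. The authors trimmed adapters, mapped read pairs with Bowtie2 (GRCh38), dropped duplicates and poorly mapped reads, and ran MACS2 in broad mode for every replicate, with input as the control. The deposited columns, all from the authors' peak caller, are a score, fold enrichment (a ratio), and a p-value and a q-value, each stored as −log10. The score was not used, and the others described, ranked or filtered peaks. Depth is unknown, so precision rests on the spread between lists, which limma pools over bins or genes. The input library was not analysed here.

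Peaks were counted by midpoint in 1 Mb bins and by overlap of at least 1 bp in RefSeq genes (GRCh38.p14), with exons and start sites from GENCODE release 44. Shares are peaks per 10000 autosomal peaks. limma 3.58.1 in R 4.3.3 was run on log2(share + 1), with a mean share of at least 3 for bins and 2 for genes, a trended prior and Benjamini-Hochberg adjustment at 0.05. A bin or gene can pass this filter through its APH lists, and 4 tested bins and 6 tested genes had no untreated peak. Others had untreated peaks but a mean untreated share under the filter. Among them were the bins from 59 to 62 Mb on chromosome 3 (2.31, 1.16 and 2.31) and from 139 to 140 Mb on chromosome 8 (2.20). Single values were compared with two-sided exact permutation tests. The fit was tested on simulated lists.

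The named items were the 8 bins, 4 CFS bands and 12 genes with the largest gap above untreated, and the 6 bins, 3 bands and 8 genes with the largest gap below, besides genes past the threshold. All bins past the limma threshold were counted, and those named outside this rule were chosen after their values were seen. The members and gene lists were chosen with earlier results of these data known. Alternatives were stronger peaks, equal list lengths, other bins, filters, pseudocounts and weights, a replicate block, leaving out each list, and, added after seeing the data, peaks outside the terminal 5 Mb, numbers in place of shares, and lists without FHIT and WWOX. Some named bins, genes and sites are not reported here.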

Additional observations from a re-analysis of the deposited data

How the results depend on the processing

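With 2 lists per group and unknown depth, counts of bins and genes past a threshold moved with most choices. In limma, bins higher and lower numbered 11 and 22 as reported, and 0 and 0 with the stronger 50% of peaks, with equal numbers of the strongest peaks and with 500 kb bins. They were 2 and 9 at a fold enrichment of at least 2.5, 3 and 2 outside the terminal 5 Mb, 0 and 6 with shifted bins and 0 and 1 with no filter. With 2 Mb bins 4 were higher, and with voom weights 2. Genes higher and lower numbered 0 and 5, and 2 and 11 at that fold enrichment, 5 and 19 with the stricter filter and 2 and 28 with voom weights. Genes higher were 7 with equal numbers, and genes lower 0 with the stronger 50%, outside the terminal 5 Mb and with a pseudocount of 0.5.

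Leaving out 1 list gave 0 (without APH replicate 1) to 125 (without untreated replicate 2) bins higher and 11 (without APH replicate 1) to 37 lower, and 0 to 62 genes higher and 3 to 49 lower. The lists left with 1 untreated replicate gave 120 and 125 bins higher, where the lone list is assumed to vary like the other group. In this design the replicate numbers are shared between the groups. With a replicate block, the share in CFS bands differed by 2.54 points as before (smallest paired exact p 0.5), 9 bins were higher and 22 lower, the bins from 12 to 13 Mb on chromosome 16 and from 139 to 140 Mb on chromosome 8 being over the threshold, and 0 genes were lower instead of 5. Deviations of same-numbered lists from their group means correlated at 0.031 over 1008 bins, and the numbers mark nothing that the labels call shared.

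Bins above and below without a test were 656 and 215. They were 1091 and 336 with 500 kb bins and 385 and 133 with 2 Mb bins. With equal numbers they were 223 and 178, and by number of peaks 1464 and 11. Genes above and below were 1348 and 336, and 736 and 150 with the stronger 50%, 219 and 197 with equal numbers, and 54 below by number. Leaving out 1 list gave 935 (without untreated replicate 1) to 1041 (without APH replicate 1) bins above, 333 (without APH replicate 2) to 615 (without untreated replicate 1) below, and 1721 to 3211 genes above and 379 to 1321 below. The difference at start sites (-0.0706 percentage points) turned to 0.0926 with the stronger 50%, and ranged from -0.208 to 0.0665 without 1 list, with 0.000157 without APH replicate 2, and that in GC (0.6 points) from -0.1 (without APH replicate 1) to 1.3. The feature shares for CFS bands, long genes, genes and chromosome ends kept their direction under every alternative run, with differences of 1.16 to 4.44 points for CFS bands and -18.8 to -5.40 for the terminal 5 Mb. Among named features, 5 differences turned, all with equal list lengths or 1 list left out: the G-quadruplex share (-0.277 with equal lengths, and -0.0467 to 0.783 points without 1 list), the AT repeat share (0.0116, and -0.0372 to 0.00249) and the 18q end bin (0.0289 on the log2 scale). The causes were not tested.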

Other observations

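Values near tRNA genes are given as a description only. The measure was chosen after the lower bins had been seen, and these bins are part of it, because those at 6p from 26 to 28 Mb hold 44 and 56 of the 439 autosomal tRNA genes of RefSeq, and those on chromosome 14 from 20 to 21 Mb, chromosome 16 from 3 to 4 Mb and chromosome 17 from 8 to 9 Mb hold 14, 14 and 18. tRNA genes are short, densely transcribed by RNA polymerase III and often clustered. Within 5 kb of a tRNA gene there were 95 and 79 untreated peaks and 69 and 52 APH peaks, which is 1.99 and 1.83% of the untreated lists and 0.391 and 0.371% of the APH lists. Within 1 kb the numbers were 32 and 25 against 19 and 18, or 0.670 and 0.578% against 0.108 and 0.128%. Without chromosome 6, which holds 155 of the genes, the numbers were 59 and 57 against 61 and 42, which overlapped, and the shares 1.23 and 1.32% against 0.345 and 0.300%. The bins on chromosomes 14, 16 and 17 are still included there. The lists of the other drugs lay at 0.300 and 0.292% under hydroxyurea and 0.303 and 0.296% under methyl methanesulfonate within 5 kb. Peaks within 5 kb of the 74 replication-dependent histone genes, 55 of them on chromosome 6, numbered 2 and 1 in untreated cells and 3 and 3 under APH.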
